A study of Mus musculus with 42 samples.

Results

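The licensing genes described here are the 10 mouse genes that load and start the replicative helicase. They are the 6 subunits of the Mcm2-7 ring (Mcm2, Mcm3, Mcm4, Mcm5, Mcm6 and Mcm7), the loading factors Orc1, Cdc6 and Cdt1, and the firing factor Mcm10. They were taken by symbol from the RNA-seq count files, as a set proposed with earlier results of these data known, and all 10 of the 24466 listed genes were found and passed the low-count filter that kept 14836 genes. Their RNA was read in 8 libraries of 3 groups. The +Dox group (n = 3) is iPax7 cells, myogenic precursors made from a mouse embryonic stem cell line in which doxycycline (Dox, 0.75 µg/ml) switches on a Pax7 transgene, sorted from embryoid bodies as PDGFαR+ Flk-1- cells and kept with FGF. The -Dox group (n = 2) is the same cells 3 days after Dox was washed out, with FGF still present. The satellite group (n = 3) is cells sorted by the fluorescence of a Pax7-ZsGreen reporter from mouse skeletal muscle, whose ages are not given in the sources used here. All iPax7 libraries come from 1 engineered line, and nothing says whether replicate libraries are separate cultures or animals, so the p-values measure the spread between these libraries, which may be technical. The same series holds 27 peak files, which were read at the starts of the same genes. They are 10 of ATAC-seq, 16 of ChIP-seq for histone marks, both called on merged replicates, and 1 list of Pax7 sites. Besides the groups above they cover iPax7 cells 12 h and 24 h after Dox removal, myotubes made from iPax7 cells or from C2C12 cells in 2% horse serum, and growing C2C12 myoblasts, a mouse muscle cell line, untagged, with a flag control or with Pax7-flag.

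Licensing is the step that allows each origin of replication to be used in the coming S phase. In G1 the origin recognition complex, of which Orc1 is the cell-cycle-regulated subunit, recruits Cdc6, and Cdt1 brings in the Mcm2-7 ring, which is loaded onto the DNA in an inactive form. Cdc45 and the GINS complex then join the ring under the kinase Cdc7 and its activator Dbf4, Mcm10 helps the assembled helicase to start, and geminin (Gmnn) binds Cdt1 so that no origin is licensed again. Cells that leave the cell cycle lose much of this machinery, and resting satellite cells and differentiating muscle cells are both known as non-dividing populations. Transcription of many of these genes in late G1 is known to go through E2F sites close to their starts.

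Sequences upstream of 5 of the genes are shown because they hold such E2F letters before the RefSeq start, which the chromatin results below return to. The 4 words TTTCCCGC, TTTCGCGC, TTTGCCGC and TTTGGCGC were searched on both strands, where they can overlap, in RefSeq promoters of build GRCm38.p6 that run from 250 bases before to 50 bases after each start. Of the 10 genes, 9 were in the promoter table, and 7 of these 9 held at least 1 word, against 2.26% of all 32851 promoters. Here and for the letters below, a gene was counted if any of its promoters matched, while the background counts single promoters. Capitals below mark the E2F letters, each sequence is read 5′ to 3′ on the gene's strand, and each matched NCBIM37 once, the build of the deposited peaks.
Mcm6: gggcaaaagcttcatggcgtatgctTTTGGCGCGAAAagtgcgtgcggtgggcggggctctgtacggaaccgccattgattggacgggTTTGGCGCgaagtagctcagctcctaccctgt
Mcm5: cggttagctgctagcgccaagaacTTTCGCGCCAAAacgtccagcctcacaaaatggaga
Cdc6: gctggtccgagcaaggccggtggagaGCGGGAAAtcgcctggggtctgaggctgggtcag
Orc1: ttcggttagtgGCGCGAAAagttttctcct
Mcm7: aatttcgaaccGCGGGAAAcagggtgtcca
The Mcm6 stretch is chr1:128359721-128359840 on the minus strand and holds 3 words, of which 2 overlap on opposite strands. The Mcm5 stretch is chr8:75109332-75109391 on the plus strand and holds an overlapping pair of words. The Cdc6 stretch is chr11:98907987-98908046 on the plus strand with 1 word, and neither it nor the stretches of Mcm6 and Mcm5 overlaps an annotated exon. The Orc1 stretch is chr4:108579416-108579445 on the plus strand, and it reaches into the first exon of Orc1 in the GENCODE M1 annotation. The Mcm7 stretch is chr5:138172030-138172059 on the minus strand, and there GENCODE M1 places exons of both Mcm7 and its neighbour Ap4m1. For Cdc6 and Mcm7 these RefSeq starts lie 350 and 539 bases after the GENCODE M1 starts at which peaks were read. The printed stretches of both genes lie after those GENCODE M1 starts. Another RefSeq start of Mcm7, 1156 bases after the GENCODE M1 start, held no E2F word. Mcm3 and Cdt1 held their words after the start, and Mcm2 and Mcm10 held none in this window. In the 100 bases before the start alone, 2 of 9 genes held a word, against 0.846% of promoters. Of the other letters searched on both strands, CCAAT occurred in 7 of 9 genes against 37.4% of promoters, and the cell cycle homology letters TTTGAA in 1 of 9, Mcm2, against 17.9%. A match of letters is a description and not a binding site.

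The 8 libraries held 39010958 to 54674619 counts on genes. Pax7 itself was at 11610 to 14130 normalized counts with Dox, at 221 and 269.5 without it, and at 3926 to 8504 in satellite cells, so the Dox labels match the gene that was switched. The 10 differentiation markers summed to 11450 to 15470 with Dox, to 2138000 and 2198000 without, and to 9575 to 16430 in satellite cells, and 10 of 10 were higher in -Dox than in +Dox. The 10 myogenic progenitor markers, led by Sdc4, Myf5 and Vcam1, summed to 186800 to 263700 with Dox and to 49190 and 53690 without. In satellite cells they summed to 734000 to 1067000. The satellite libraries also held more of the markers of other cell types than the iPax7 libraries did. Endothelial markers summed to 14440 to 21830 in satellite cells and to at most 167.6 in the iPax7 libraries, and blood markers to 2378 to 9883 against at most 471.7. Fibro-adipogenic markers summed to 59140 to 109600 against at most 12600, and Schwann markers to 1901 to 3223 against at most 91.9. In the iPax7 libraries Cdh5 (with Dox and without) and Ptprc, Itgam, Cd3e, Sox10, Pou5f1 and Nanog were at 0. Others of the same lists were detected with Dox. The pluripotency markers Zfp42 and Esrrb were at 12.6 to 39.2 and 0 to 82.9, the endothelial Tek at 4.44 to 166 and the blood marker Cd68 at 158 to 464. Reads that mapped to more than 1 place were 23.6% to 30.7% of the satellite files and 7.11% to 7.60% of the iPax7 files. The part of these differences in the satellite values below was not tested. A normalized count is a count divided by the library's TMM-scaled size and multiplied by the mean size, and a log2 fold change comes from edgeR's quasi-likelihood fit over all 8 libraries, with its SE. A gene is called at a Benjamini-Hochberg adjusted p under 0.05 over the 14836 genes. Library totals in place of TMM moved the median of all genes by −0.215 in -Dox against +Dox, −0.370 in satellite cells against +Dox and −0.168 in satellite cells against -Dox, and raised the share of lower genes among the calls from 39.5% to 51.7% in the first and from 44.2% to 56.6% in the second.

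The first comparison asked what happened to the licensing genes when Pax7 was withdrawn. All 10 had lower normalized counts in both -Dox libraries than in every +Dox library, which was so for 22.7% of all genes, and 6 of the 10 passed the test: Mcm3, Mcm4, Mcm5, Mcm7, Cdc6 and Mcm10. Of all genes tested, 3.04% were called lower and 4.66% higher in the same comparison, and the median log2 fold change was −2.66 over the 10 genes against −0.00492 over all genes. Without an adjustment for multiple tests 10 of 10 were lower at p under 0.05, against 10.3% of all genes. DESeq2 called 10 of 10 lower, but it also called 1098 of all genes lower, where edgeR called 451. In bulk samples such as these, fewer cells that express a gene and less RNA per cell cannot be told apart.

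**Figure D1:**
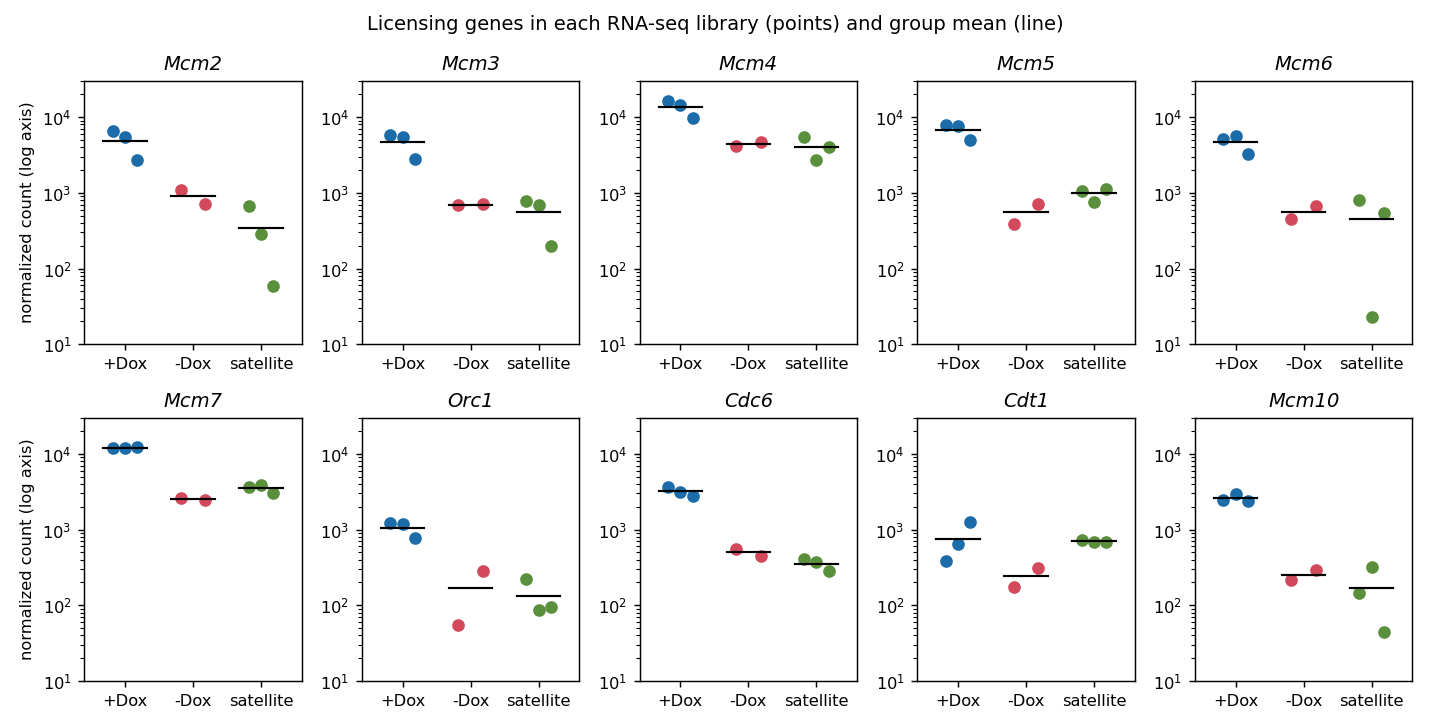
Normalized RNA-seq counts (log axis) of the 10 licensing genes, 1 point for each library and a line at the group mean, for +Dox (n = 3), -Dox (n = 2) and satellite cells (n = 3). Both -Dox points lie under all +Dox points in every panel, and the satellite points do so in all panels but Cdt1.

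Among the subunits of the ring, Mcm5 fell most. Its normalized counts were 7820.2, 7734 and 4935 with Dox and 388 and 715 without, a log2 fold change of −3.63 ± 0.43 (SE, adjusted p = 0.0011, edgeR). Mcm7 varied least between the +Dox libraries, at 11851, 11934 and 12151 with Dox and at 2632 and 2466 without. It fell by 2.23 ± 0.26 on the log2 scale (adjusted p = 0.00094, edgeR), and its coefficient of variation with Dox was 1.29%, against 11.9% to 59.0% for the other 9 genes. Reads where Mcm7 overlaps Ap4m1, which encodes a subunit of a sorting adaptor complex, may have been left out or split by the counting. Mcm4 had the highest mean count with Dox, although Mcm7 was above it in the third library, at 16468, 14631 and 9644 with Dox and at 4119 and 4676 without. Its change of −1.63 ± 0.37 (adjusted p = 0.027, edgeR) was the smallest of the 10. Mcm3 went from 5799.6, 5398 and 2785 to 684 and 707, a change of −2.74 ± 0.60 (adjusted p = 0.024, edgeR). These 4 subunits fell in the test and the remaining pair did not pass it.

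Mcm2 and Mcm6 had separate groups and wide standard errors. Mcm2 stood at 6512, 5408 and 2725 with Dox and at 1089.95 and 709 without, a log2 fold change of −2.44 ± 0.84 (adjusted p = 0.12, edgeR). Mcm6 stood at 5193, 5565 and 3239 with Dox and at 449 and 669 without, a log2 fold change of −3.06 ± 1.07 (adjusted p = 0.12, edgeR). Both genes had their lowest satellite value in 1 library that lay far under the others, and that spread entered the shared fit. Without the third satellite library Mcm2 was called lower in -Dox, and without the second one Mcm6 was, as both were when the fit held only the 2 groups compared.

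The loading factors moved unevenly. Cdc6, the ATPase that loads the ring with ORC, went from 3641, 3178 and 2776 with Dox to 554 and 448 without, a change of −2.67 ± 0.35 (adjusted p = 0.0020, edgeR). Orc1 stood at 1222, 1185 and 765 with Dox and at 54.2 and 282 without, a log2 fold change of −2.65 ± 0.79 (adjusted p = 0.079, edgeR). The -Dox libraries differed from each other by more for Orc1 than for any other of these genes, with a coefficient of variation of 95.9%. Cdt1, the chaperone that brings in the ring, was at 380.1, 644 and 1252 with Dox and at 174 and 306 without, a log2 fold change of −1.66 ± 0.58 (adjusted p = 0.12, edgeR). Its +Dox libraries were the most scattered of the set, and the third of them was the highest for Cdt1 while it was the lowest of its group for 8 of the 10 genes. Mcm10 went from 2481, 2949 and 2364 to 215 and 294, a change of −3.35 ± 0.73 (adjusted p = 0.023, edgeR). With either +Dox library 1 or 2 or either -Dox library left out, 3 of the 10 genes were called, and these were Mcm5, Mcm7 and Cdc6. Where 1 -Dox library is left, it is assumed to vary like the other groups.

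The second comparison set satellite cells against +Dox cells, both of which express Pax7. Of the 10 genes, 9 were lower in satellite cells and were called, and Cdt1 was not. Of all genes tested, 19.8% were called lower and 25.1% higher in that comparison, and the median log2 fold change was −3.02 over the 10 genes and 0.174 over all genes. The same 9 genes were called by DESeq2, beside 3227 of all genes called lower, and in each of the 14 alternative fits. For the same 9, no satellite library reached any +Dox library, which was so for 26.3% of all genes in that direction. Many markers of other cell types moved the other way between the same libraries. In satellite cells 6 of 6 endothelial, 5 of 6 fibro-adipogenic, 4 of 5 tested blood and 4 of 4 Schwann markers were called higher. Of the 10 myogenic progenitor markers, 8 were also called higher and 1, Pax7, lower. Of the 10 differentiation markers, 5 were called lower and 2 higher.

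Mcm10 and Mcm2 had the largest differences. Mcm10 was at 146, 318 and 44.8 in satellite cells, a log2 fold change of −3.94 ± 0.64 against +Dox (adjusted p = 0.0011, edgeR). Mcm2 was at 671, 286 and 59.3, a log2 fold change of −3.85 ± 0.77 (adjusted p = 0.0033, edgeR). In each case the third satellite library was the lowest, and it was also the lowest for Mcm3, Mcm7 and Cdc6. Cdc6, at 405, 371 and 285, had the smallest p of the set, with a log2 fold change of −3.18 ± 0.31 (adjusted p = 7.4e-05, edgeR). Mcm3 was at 786, 693 and 200.5 and differed by −3.06 ± 0.52 (adjusted p = 0.0014, edgeR). Mcm6 was at 799, 22.8 and 547, so that 17 counts in the second library stood against 607 and 415 in the others, and it differed by −3.35 ± 0.92 (adjusted p = 0.015, edgeR). That satellite library was not low for the whole ring, since it held the highest Mcm7 value of its group. Orc1 was at 219.8, 87.1 and 95.0 and differed by −2.98 ± 0.69 (adjusted p = 0.0070, edgeR).

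The smaller differences were those of Mcm5, Mcm7 and Mcm4. Mcm5 was at 1061, 767 and 1139.5 in satellite cells, a log2 fold change of −2.79 ± 0.35 (adjusted p = 0.00026, edgeR). Mcm7 was at 3606, 3848 and 3032 and differed by −1.78 ± 0.22 (adjusted p = 0.00023, edgeR). Mcm4 was at 5504, 2756 and 4016 and differed by −1.73 ± 0.32 (adjusted p = 0.0021, edgeR). Cdt1 stood apart from these 9. It was at 721, 689 and 689.8, inside the +Dox range of 380.1 to 1252, with a log2 fold change of −0.12 ± 0.49 (adjusted p = 0.87, edgeR). That sign turned to 0.45 without the third +Dox library and to 0.07 in the fit blocked by replicate number, and no alternative called it.

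**Figure D2:**
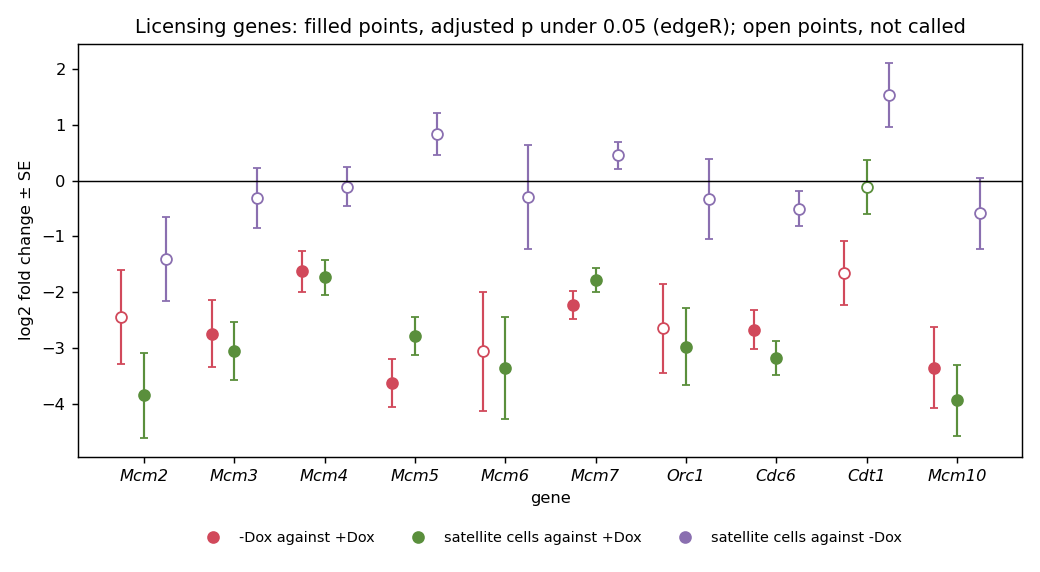
Log2 fold change ± SE of each licensing gene in 3 comparisons from 1 edgeR fit over 8 libraries. Filled points passed an adjusted p of 0.05 and open points did not: 6 of 10 in -Dox against +Dox, 9 of 10 in satellite cells against +Dox and 0 of 10 in satellite cells against -Dox.

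The third comparison set the groups with little licensing RNA against each other. None of the 10 genes was called in either direction between satellite cells and -Dox cells by edgeR, where 18.1% of all genes were called lower and 20.9% higher. At an unadjusted p under 0.05, Mcm5 and Cdt1 were higher in satellite cells (27.2% of all genes) and none was lower (22.4%). DESeq2 called Cdt1 alone, as higher, beside 3999 of all genes called higher and 3007 lower. These comparisons share their libraries with the first pair, so the 3 sets of values are not independent. The log2 fold changes ran from −1.41 ± 0.76 for Mcm2 (adjusted p = 0.16, edgeR) to 1.54 ± 0.58 for Cdt1 (adjusted p = 0.058, edgeR). Mcm5 differed by 0.84 ± 0.37 (adjusted p = 0.099, edgeR) and Mcm7 by 0.46 ± 0.24 (adjusted p = 0.15, edgeR). For Mcm5, Mcm7 and Cdt1 all satellite libraries lay above both -Dox libraries, as for 33.7% of all genes, for Mcm2 and Cdc6 all lay below, as for 30.6%, and for the other 5 genes the groups overlapped. Leaving out the first satellite library made Mcm2 a call in the lower direction (adjusted p = 0.032, edgeR), and leaving out the third +Dox library made Cdt1 a call in the higher direction (adjusted p = 0.035, edgeR). With standard errors of up to 0.93, as for Mcm6, differences of 2-fold were not resolvable for every gene.

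Levels of different genes were compared per length, as TMM-scaled CPM (counts scaled to a common library size) divided by kb of union exon. With Dox, Mcm4 stood first at 80.0 ± 20.8 (SD, n = 3) and Mcm7 second at 57.2 ± 0.74 (SD, n = 3), with overlapping ranges. Mcm5 at 41.3, Mcm3 at 33.0, Mcm2 at 30.6 and Mcm6 at 22.6 followed, each overlapping the next of these 4, while Mcm5 lay wholly below Mcm7. Cdc6 at 12.9, Cdt1 at 7.33, Mcm10 at 7.14 and Orc1 at 4.78 made up the lower end, and the steps from Mcm6 to Cdc6 and from Mcm10 to Orc1 were also free of overlap. Mcm4 and Mcm7 kept the first places in the other groups, at 25.9 ± 2.32 (SD, n = 2) and 12.2 ± 0.56 (SD, n = 2) without Dox and at 24.1 ± 8.11 (SD, n = 3) and 16.7 ± 2.00 (SD, n = 3) in satellite cells. Cdt1 moved from rank 8 with Dox and 7 without to rank 3 in satellite cells, at 6.76 ± 0.18 (SD, n = 3), where it overlapped Mcm5 below it and not Mcm7 above it. With the longest transcript as the length, Mcm7 stood first with Dox and in satellite cells, at 85.5 with Dox in place of 57.2, and Mcm10 at 11.3 in place of 7.14.

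The Mcm2-7 ring holds 1 copy of each subunit, yet its transcripts were not equally abundant. Summed per length, the 6 subunits stood at 308, 289 and 197 CPM per kb with Dox, at 53.0 and 56.3 without, and at 69.7, 46.1 and 49.5 in satellite cells. Mcm4 made up 28.8% to 31.5% of that sum with Dox, 45.8% and 48.9% without, and 35.3% to 47.8% in satellite cells, so both other groups lay above the +Dox range. Mcm5 went the other way, from 15.1% to 16.2% with Dox to 4.42% and 7.68% without, and stood at 9.20% to 13.9% in satellite cells. Mcm2 made up 8.67% to 13.3% with Dox and 0.753% to 6.04% in satellite cells. The ratio of the most to the least abundant subunit was 3.20 to 3.86 with Dox, 8.50 and 11.1 without, and 8.38, 167 and 63.5 in satellite cells. The last values rest on the 17 counts of Mcm6 in the second satellite library and the 45 counts of Mcm2 in the third.

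**Figure D3:**
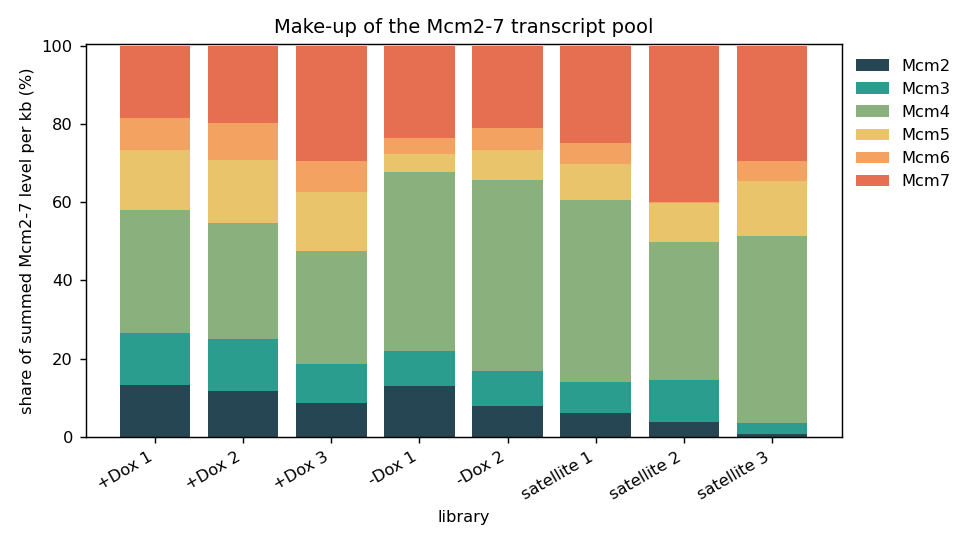
Share of each Mcm2-7 subunit in the summed level per kb of the 6 subunits (percent), for each of the 8 RNA-seq libraries. The Mcm4 band widens from 28.8% to 31.5% with Dox to 45.8% and 48.9% without, and Mcm6 nearly vanishes from the second satellite bar at 0.24%.

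Cdt1 was also set beside geminin, its inhibitor, a ratio that was chosen after the values were seen. Gmnn stood at 3355, 3092 and 4735 with Dox, at 640.6 and 639.7 without and at 207, 130.02 and 81.8 in satellite cells. It was called in all 3 comparisons, with log2 fold changes of −2.54 ± 0.45 (adjusted p = 0.0087, edgeR) without Dox and −4.74 ± 0.43 (adjusted p = 5.2e-05, edgeR) in satellite cells against +Dox, and it was 4.59-fold lower in satellite cells than in -Dox cells (adjusted p = 0.0028, edgeR). The ratio of Cdt1 to Gmnn counts was 0.113 to 0.264 with Dox, 0.271 and 0.479 without, and 3.49 to 8.44 in satellite cells. No group overlapped another, and the geometric mean in satellite cells was 29.3 times that with Dox. The exact permutation p of that difference was 0.10 for 3 libraries against 3, 2-sided, the smallest the design allows. It was 0.24 after adjustment over 6 tests, of this ratio and 1 other in 3 comparisons each. The other, also chosen after the values were seen, was Cdt1 over the mean of Mcm2-7 per length. It was 0.0715 to 0.368 with Dox, 0.19 and 0.315 without and 0.6 to 0.867 in satellite cells. Gmnn is made mainly in S and G2 phase and Cdt1 in G1, as background.

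The rest of the origin recognition complex was set beside Orc1. On Dox withdrawal 0 of 5 subunits were called by edgeR, where 3.04% of all genes were called lower and 4.66% higher. Their median log2 fold change was 0.18. Orc6 was lower at an unadjusted p under 0.05, as were 10.3% of all genes, and DESeq2 called 1 of 5 lower, beside 1098 of all genes. Orc2 was at 1625 to 2033 with Dox and at 2060.4 and 2214 without, Orc3 at 3502 to 4016 and at 4739 and 5127, and Orc4 at 6188 to 7727 and at 8497 and 8374. These 3 subunits were not called, with adjusted p of 0.86, 0.47 and 0.70 (edgeR). Orc5 was at 3606 to 4069.7 with Dox and at 2363 and 1986 without (adjusted p = 0.48, edgeR), and Orc6 at 4662 to 5915 and at 2445 and 2265 (adjusted p = 0.095, edgeR). In satellite cells Orc3, Orc5 and Orc6 were lower than in +Dox cells, with adjusted p of 0.0097, 0.0029 and 0.0045 (edgeR). Against -Dox cells Orc3, Orc4 and Orc5 were lower, with log2 fold changes of −1.39, −0.77 and −1.88. These are 3 of 5 subunits each time, where 19.8% and 18.1% of all genes were called lower.

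Genes that control licensing include geminin, the Mcm2-7 partner Mcmbp, the ubiquitin ligase subunits that remove Cdt1 and cyclin A. On withdrawal 3 of 10 were called lower and 0 higher, against 3.04% and 4.66% of all genes. They were Ccna2, which encodes cyclin A2 (−4.01, adjusted p = 0.043, edgeR), Gmnn, and Dtl, the adaptor that targets Cdt1, which was named after its value was seen. That count was 0 with either -Dox library left out, 1 without +Dox library 1 or 2, and 5 with DESeq2 or with only the 2 groups in the fit. In satellite cells 6 of 10 were lower than in +Dox cells and 2 were higher, against 19.8% and 25.1% of all genes, so the share of higher calls was under the background. The higher ones were Cul1, a ligase scaffold (1.07, adjusted p = 0.011, edgeR), and Mcmbp (0.87, adjusted p = 0.025, edgeR). Mcmbp was at 7936, 12592 and 13901 in satellite cells, at 5801 to 7071 with Dox and at 3426 and 2757 without, so it was highest in satellite cells and lowest without Dox. Of the other Mcm proteins, 3 of 4 were tested and 0 of 3 were called on withdrawal by edgeR, at an unadjusted p under 0.05 or by DESeq2. Mcm8, a helicase subunit of DNA repair, was lower in satellite cells than in +Dox cells (−4.10, adjusted p = 0.00099, edgeR).

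Origin firing genes followed the licensing genes on withdrawal, with 9 of 16 called lower and 0 higher, against 3.04% and 4.66% of all genes. Their median log2 fold change was −2.33, against −0.00492 over all genes. The 9 became 3 without +Dox library 1 or 2 and 0 without either -Dox library. Cdc45, which completes the helicase, went from 2788 to 3358 with Dox to 546 and 483 without (−2.54, adjusted p = 0.037, edgeR), and Gins2 from 2374 to 3981 to 507 and 793 (−2.23, adjusted p = 0.048, edgeR). Cdc7, the firing kinase, went from 1848 to 2948 to 298 and 291 (−3.12, adjusted p = 0.0056, edgeR). The remaining GINS subunits and Dbf4 were not called, with log2 fold changes of −2.08 for Gins1, −1.29 for Gins3, −1.18 for Gins4 and −2.44 for Dbf4. Ticrr, which brings Cdc45 to origins, had 198 to 685 counts with Dox and 0 in both -Dox libraries. Against a floor of 3 counts in each library it was at least 127-fold lower. Recql4, a helicase of origin firing, was at 58.3 to 259 with Dox and at 0.919 and 6.46 without (adjusted p = 0.043, edgeR). In satellite cells 11 of 16 firing genes were lower than with Dox, against 19.8% of all genes, Cdc45 by −4.33 and Gins2 by −4.02. Against -Dox cells 4 of 16 were lower, Cdc45 and Gins2 among them, and 2 were higher, against 18.1% and 20.9% of all genes. Those 2 were Timeless and Recql4. Timeless, of the fork protection complex, was not lower there, at 3781, 3582 and 1529 against 1165 to 2752, and was higher than in -Dox cells by 3.12 (adjusted p = 0.0021, edgeR), as was Recql4 by 4.96 (adjusted p = 0.017, edgeR).

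At the replication fork 10 of 27 genes were called lower on withdrawal and 0 higher, against 3.04% and 4.66% of all genes. The median log2 fold change of this list was −1.56. The largest changes among the called genes were those of the clamp loader subunit Rfc5 (−3.02, adjusted p = 0.0050, edgeR) and the polymerase alpha subunit Pola1 (−2.84, adjusted p = 0.0083, edgeR). The count was 1 to 3 with 1 -Dox library left out and 5 without +Dox library 1 or 2, and it was 16 with DESeq2 and 18 with only the 2 groups in the fit. In satellite cells 19 of 27 were lower than in +Dox cells and 1, the polymerase epsilon subunit Pole4, was higher (1.18, adjusted p = 0.0087, edgeR), against 19.8% and 25.1% of all genes. Pcna, the sliding clamp, was at 8315, 7856 and 11580 in satellite cells and at 8859, 9673 and 12038 with Dox (adjusted p = 0.67, edgeR), and at 2863 and 2658 without Dox. Against -Dox cells 9 of 27 were lower in satellite cells and 4 were higher, against 18.1% and 20.9% of all genes. The 4 were Pcna, Pola1, Pold3 and Pole4, higher by 1.74, 1.96, 2.33 and 1.69 on the log2 scale. Of the genes that supply nucleotides, 4 of 6 were called lower on withdrawal, against 3.04% of all genes. They were led by Dut (−4.17, adjusted p = 0.0018, edgeR) and the ribonucleotide reductase subunit Rrm2 (−3.37, adjusted p = 0.0073, edgeR). In satellite cells 6 of 6 were lower than with Dox, against 19.8% of all genes.

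**Figure D4:**
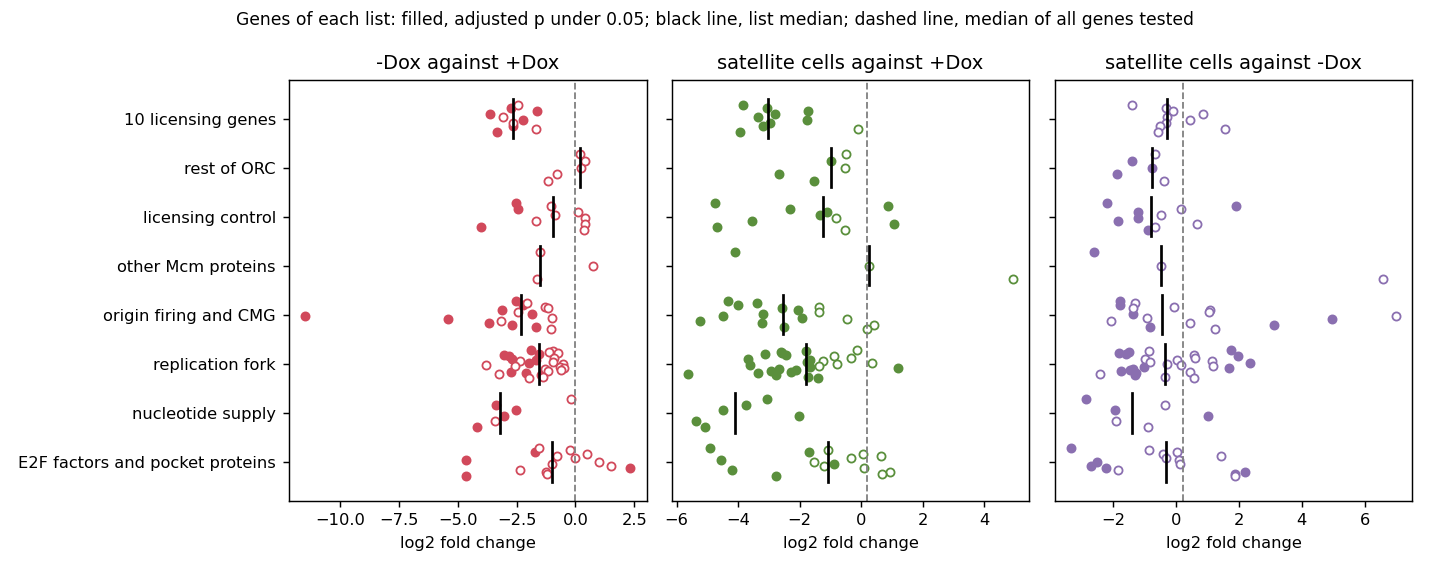
Log2 fold change of every gene tested in 8 lists of replication genes, in 3 comparisons from 1 edgeR fit, with filled points for an adjusted p under 0.05, black lines at list medians and a dashed line at the median of all genes. The licensing genes have a median of −2.66 on Dox withdrawal and the rest of ORC one of 0.18, and the point far to the left is the fitted value of Ticrr, which had 0 counts in both -Dox libraries.

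E2F factors and the pocket proteins that hold them in check form the last list. On withdrawal 3 of 15 were lower and 1 was higher, against 3.04% and 4.66% of all genes. The 3 became 1 without the second +Dox or the first -Dox library and 5 with only the 2 groups in the fit. E2f7, a late repressor, went from 872 to 1692 with Dox to 78.1 and 26.8 without (−4.65, adjusted p = 0.0032, edgeR), and Mybl2 from 324 to 402 to 6.43 and 22.2 (−4.65, adjusted p = 0.015, edgeR). Rb1, the retinoblastoma protein, rose from 826 to 897 with Dox to 4099.7 and 4483 without (2.33, adjusted p = 0.0014, edgeR). In satellite cells Rb1 was at 750.4, 1023 and 954, close to the +Dox range (adjusted p = 0.81, edgeR) and lower than in -Dox cells by −2.24 (adjusted p = 0.00040, edgeR). Against -Dox cells 4 of 15 were lower in satellite cells, Rb1 among them, and 2 were higher, shares of the list beside 18.1% and 20.9% of all genes. The 2, Rbl2 and Lin54, which belong to the repressive DREAM complex, were 4.60-fold and 3.69-fold higher in satellite cells than in -Dox cells (adjusted p = 0.029 and 0.025, edgeR). These higher calls fell from 2 to 0 without the second -Dox library and to 1 without the first -Dox, the second satellite or the third satellite library.

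The genes with a pattern most like the 10 were found by Pearson's r with their mean scaled log2 CPM across the 8 libraries, over 12410 genes with a mean of at least 1 CPM. The first 8 were C330027C09Rik (named Cip2a by RefSeq), Alox12, Mthfd1l, Bub1, Kif15, Tacc3, Cenpf and Tle6, with r from 0.993 to 0.977. The points share 3 groups and so are not independent, and 210 genes had an r over 0.9. Bub1, a kinase of the spindle checkpoint, was at 2599 to 4224 with Dox, at 71.7 and 318 without and at 109 to 502 in satellite cells. Cenpf, a kinetochore protein, was at 1387 to 4197, at 138 and 251 and at 83.1 to 438. Within the set, r of each gene with the mean of the other 9 was 0.77 to 0.97 for 9 genes and 0.23 for Cdt1.

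Chromatin at the starts of the genes was read from peaks within 1 kb of the GENCODE M1 start. An ATAC-seq peak marks open chromatin, and all 10 genes had one in each of the 10 ATAC-seq files, from +Dox cells through 12 h, 24 h and 3 days without Dox to myotubes, C2C12 cells and satellite cells, where 42.5% to 63.2% of 22238 protein-coding genes had one. That background was 60.7% with Dox, 58.8% at 12 h, 61.9% at 24 h, 63.2% at 3 days and 59.3% in iPax7 myotubes, and 51.5% in C2C12 myotubes, 42.5% in C2C12 myoblasts, 53.2% with the flag control, 54.3% with Pax7-flag and 56.2% in satellite cells. The deposited fold enrichment of these peaks had a median of 38.8 over the 10 genes with Dox and 37.7 after 3 days without. Its median percentile among all starts with a peak was 72.4 in both files and 69.5 in satellite cells. Single genes moved both ways, as Mcm2 went from percentile 59.6 with Dox to 41.2 after 3 days, and Cdt1 from 50.1 to 70.6. Of the 10 genes, 9 lay above the median of such starts with Dox, 7 after 3 days without and 6 in satellite cells. Mcm3 stood highest after 3 days without Dox and in satellite cells, at percentiles 97.6 and 99.7. The lowest were Mcm6 at 30.5 after 3 days without Dox and Mcm2 at 32.3 in satellite cells. So the starts of these genes still carried peaks of open chromatin where their RNA was low, as 63.2% and 56.2% of all genes did.

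H3K27ac, an acetylation found at active promoters and enhancers, had a peak at all 10 starts with Dox and at 4 of 10 after 3 days without it. The background was 45.9% and 43.0% of all protein-coding genes in those files. Of the 10204 genes with a peak with Dox, 10.8% had none without, against 6 of the 10 licensing genes. The 6 were Mcm2, Mcm3, Mcm5, Mcm6, Cdc6 and Mcm10, and their nearest H3K27ac peak without Dox lay 2.86 kb (Mcm2) to 126 kb (Mcm3) away. The bases covered within 1 kb with Dox ran from 275 for Mcm10 to 1354 for Mcm5 among these 6. The 4 that kept a peak were Mcm4, with 1308 bases covered with Dox and 695 without, Mcm7 with 1698 and 1009, Orc1 with 978 and 663, and Cdt1 with 1364 and 1409. Cdt1 thus had no less sequence under H3K27ac peaks after withdrawal, unlike the other 9. Each condition is 1 peak file from merged replicates, so these differences have no replicate error, and the -Dox file held 90168 peaks against 119528, a difference whose part in the loss was not tested. The RNA change on withdrawal was −3.63 to −2.44 on the log2 scale in the 6 genes without a peak and −2.65 to −1.63 in the 4 with one, and these ranges overlap.

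**Figure D5:**
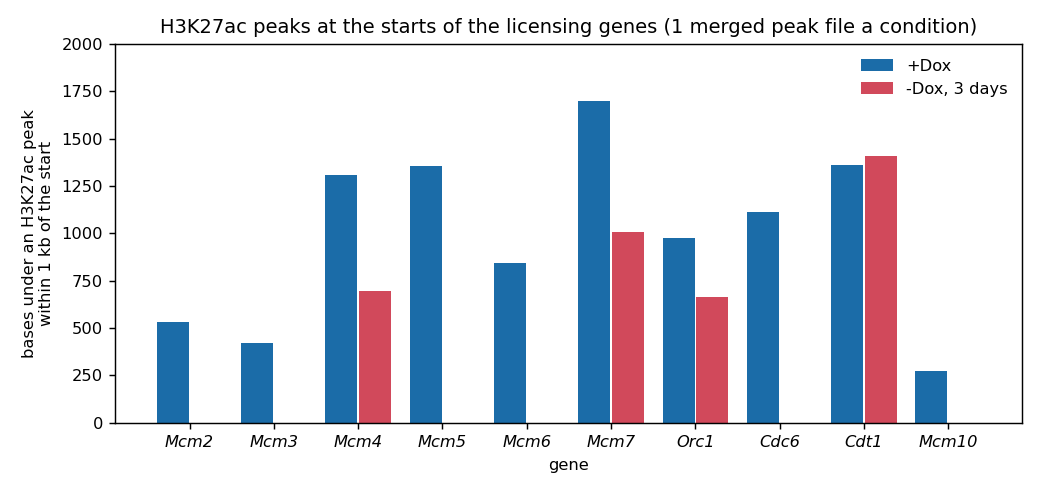
Bases under an H3K27ac peak within 1 kb of the start of each licensing gene, in iPax7 cells with Dox and 3 days after its removal, from 1 merged peak file a condition with no error. Mcm2, Mcm3, Mcm5, Mcm6, Cdc6 and Mcm10 have no covered base without Dox, and Cdt1 has 1364 with Dox and 1409 without.

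Peaks of the other marks were lost at fewer of the 10 starts. H3K4me3, a mark of promoters, had a peak at 10 of 10 starts with and without Dox, where 58.3% and 64.0% of genes had one and 0.679% of those with a peak lost it. H3K4me1, a mark found at enhancers and promoter flanks, had a peak at 10 of 10 starts with Dox and at 9 of 10 without. The start without one was that of Mcm3, and the background was 59.5% and 62.5%. Of all genes with such a peak with Dox, 4.06% had none without. The bases under H3K4me1 peaks within 1 kb were fewer without Dox at every start. They went from 1172 to 0 at Mcm3, from 1720 to 799 at Cdt1 and from 1540 to 1476 at Orc1. The share of all genes with such a fall is not given here. The -Dox files of H3K4me3 and H3K4me1 held 214172 and 243932 peaks, against 94067 and 186990 with Dox, while that of H3K27ac held fewer. The part of these peak numbers in the contrast between marks was not tested. H3K27me3, a repressive Polycomb mark, had no peak at any of the 10 starts in any of its 4 files. Of all genes 20.2% had one with Dox and 18.5% without, 17.5% in C2C12 with the flag control and 20.0% with Pax7-flag. The part of this mark in the low RNA without Dox was not tested. In C2C12 myoblasts H3K27ac peaks lay at 10 of 10 starts with the flag control and with Pax7-flag (background 51.6% and 52.7%), and H3K4me3 peaks at 7 of 10 in both (42.9% and 35.7%). H3K4me1 peaks lay at 9 of 10 and 10 of 10 of those starts (45.5% and 61.0%). With a window of 0.5 kb they lay at 5 of 10 in both, and the share of all genes at that window is not given here.

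Of the 4 genes that kept H3K27ac, 3 start back to back with another gene. Mcm4 lies 466 bases from the start of Prkdc, which encodes the DNA-dependent protein kinase, Orc1 lies 87 bases from Prpf38a, a splicing factor gene, and Mcm7 overlaps Ap4m1 with starts 420 bases apart in GENCODE M1. None of the other 7 genes has such a neighbour within 1 kb, and 10.8% of all protein-coding genes do. A peak there cannot be assigned to 1 of the 2 genes. Prpf38a was at 2984 to 4143 with Dox and at 5522 and 4842 without (adjusted p = 0.38, edgeR), so both -Dox libraries lay above the +Dox range while Orc1 lay below it. Prkdc was at 123 to 835 and at 289 and 114 (adjusted p = 0.47, edgeR), and Ap4m1 at 629 to 872 and at 464.1 and 463 (adjusted p = 0.56, edgeR).

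Pax7 binding was read from the 2455 sites of the +Dox ChIP-seq list, which by the study's methods keeps peaks shared between +Dox replicates and drops those seen in any replicate without Dox, and 1 of the 10 genes, Mcm6, had a site within 1 kb of its start, against 1.32% of all genes. The site is 328 bases long at chr1:130256177-130256504 in NCBIM37 (mm9), with 271 bases before the Mcm6 start and 57 in its first exon. It contains the Mcm6 stretch printed above, at 130256298 to 130256417 in that build, with its 3 E2F words. E2F words occurred in 1.14% of 300-base windows centred on the 2455 sites, among them this one. The letters TAATNNATTA occurred in 1.02% of the windows and GTCACGC in 3.22%, on both strands, and neither in that of Mcm6, which says only that these letters are not in this window. The nearest site to any other of the 10 starts lay 87.2 kb away, at Mcm7, and the farthest 2153 kb, at Mcm5. The median distance was 337 kb for the 10 genes and 407 kb for all protein-coding genes.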

How the data were processed

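RNA-seq was read in 8 libraries, and ATAC-seq and ChIP-seq in 27 peak files. The raw counts per gene were deposited by the authors, 1 file a replicate. The submitters' processing notes name Trimmomatic 0.32, TopHat2 2.0, Bowtie2 2.2 and 2.2.6, HTSeq 0.6, MACS2 2.0.10, Picard, edgeR and mm9, and the RNA annotation and the strand setting are not given in the sources used here. The authors merged replicates before they called ATAC-seq and histone peaks (MACS2 and Qeseq), whereas Pax7 peaks were called in each replicate and filtered across replicates. The deposited peak files give the fold enrichment and the −log10 p and q of each peak where they hold such columns.

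Rows that name no gene were left out: reads with several alignments (7.11% to 30.7% of a file), ambiguous reads (1.51% to 2.32%) and reads on no feature (up to 0.00309%). The counts were fitted with edgeR 4.0.16 (R 4.3.3, TMM factors, filterByExpr) by the quasi-likelihood test over all 8 libraries, with Benjamini-Hochberg adjustment, and each SE was taken from the log2 fold change and the F statistic. The scripts were tested on simulated data. DESeq2 1.42.0, other scalings and filters, a fit of the compared groups alone, a block and each library left out were the alternatives. Peaks were read within 1 kb of GENCODE M1 starts (NCBIM37), and promoters from RefSeq (GRCm38.p6). Mcm4 is missing from that promoter table.

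The licensing genes and the lists were chosen with earlier results of these data known. Named genes were the 10 licensing genes, the rest of ORC, Gmnn, Cdc45, Gins1 to Gins4, Cdc7 and Dbf4, from each other list the 2 called genes with the largest change on withdrawal and any gene called against the list's median, and the 8 genes most like the set. Single genes that these rules would name but that are withheld are not reported here.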

Additional observations from a re-analysis of the deposited data

How the results depend on the processing

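Of the 10 licensing genes, 6 were called lower on Dox withdrawal by edgeR, 10 by DESeq2 and 3 to 7 with 1 library left out. The 9 called in satellite cells against +Dox were 9 in every alternative. Against -Dox, 0 were called higher by edgeR, 1 by DESeq2 and 0 to 1 with 1 library left out. Over all genes, withdrawal called 451 lower and 691 higher, which became 1098 and 1186 with DESeq2, 1027 and 1128 with only the 2 groups in the fit, and 125 to 621 and 363 to 823 with 1 library left out. Satellite cells against -Dox gave 2681 lower and 3099 higher, and 1633 to 2969 and 1571 to 3352 with 1 library left out. Where 1 -Dox library remained, it was assumed to vary like the other groups. The cause of these shifts was not tested. Library totals in place of TMM gave 610 lower and 570 higher on withdrawal and 3863 and 2967 in satellite cells against +Dox.

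Replicate numbers did not pair the libraries: deviations of same-numbered libraries correlated at −0.0487 to 0.0333. The replicate block left 266 genes lower on withdrawal and called 7 of the 10 licensing genes. It turned the uncalled Cdt1 difference from +Dox to 0.072 and the uncalled Orc1 difference between satellite and -Dox cells to 0.00353. Other signs that turned were also of uncalled differences. Without 1 library, Cdt1 in satellite cells against +Dox ran from −0.49 to 0.45, and against -Dox Mcm3 ran from −0.64 to 0.092, Mcm4 from −0.37 to 0.12, Mcm6 from −0.97 to 0.27 and Orc1 from −1.08 to 1.25. By Spearman's rho, 0 of the 8 most alike genes stayed among the first 8. The C2C12 H3K4me1 counts of 9 and 10 starts both fell to 5 with a window of 0.5 kb, and the second to 6 by peak centres. The shares of all genes under those settings are not given here. A stricter peak score could not be applied to peak files that hold positions only.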
